A study of Mus musculus with 4 samples.

Results

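The 48 genes described here encode the subunits, activators, inhibitor and assembly chaperones of the mouse proteasome. They were taken by symbol from the 31053 genes of the deposited count matrices: every Psma, Psmb, Psmc, Psmd and Psmf gene with a number, Psme1 to Psme4 and Psmg1 to Psmg4. Levels were read in 4 single-cell RNA libraries of CD45+ splenocytes from C57BL/6 mice, 1 library per group. The young WT and aged WT groups were both WT (miR155 fl/fl), so they carried the floxed miR-155 gene. The aged miR-146a knockout group lacked miR-146a in the whole body. In the aged double knockout group (miR146aKO_miR155TCKO), miR-155 was in addition deleted in T cells, by a driver that these sources do not name. Aged mice were 15 months old and each aged library pooled 3 to 6 mice. Neither age nor pool size was stated for the young group in the labels used here. Live DAPI- CD45+ cells in a lymphocyte gate of low forward and side scatter were sorted, so granulocytes and other scatter-high cells were seen only as far as they entered that gate. The labels name both 3' and 5' 10x chemistry.

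The proteasome degrades ubiquitin-tagged proteins in a barrel of alpha and beta rings, capped by a regulatory particle of ATPases and lid subunits. Its proteolytic sites lie on Psmb6, Psmb7 and Psmb5. Interferon and lymphoid identity bring in Psmb9, Psmb10 and Psmb8 at the same positions, which gives the immunoproteasome. Together with the activator Psme1 and Psme2 (PA28 alpha and beta), it is known for shaping the peptides that MHC class I molecules present.

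Promoter sequences are shown for 4 members whose levels the results turn on: a constitutive catalytic subunit, an activator subunit and a pair of immune catalytic subunits. The RefSeq table (GRCm38.p6, the assembly of mm10) matched 40 of the 48 members. Each sequence covers 250 bases before and 50 bases after a RefSeq start site and runs 5′ to 3′ on the strand of the gene. Capitals mark matches, on either strand, to ISRE (GAAANNGAAA), GAS (TTCNNNGAA), CCAAT box (CCAAT), GC box (GGGCGG) or an antioxidant response element, ARE (TGACNNNGC). The windows are, on the minus strand, chr14:54617946-54618245 for Psmb5 and chr17:34187281-34187580 for Psmb9, and, on the plus strand, chr14:55578244-55578543 for Psme1 and chr17:34197945-34198244 for Psmb8.
Psmb5: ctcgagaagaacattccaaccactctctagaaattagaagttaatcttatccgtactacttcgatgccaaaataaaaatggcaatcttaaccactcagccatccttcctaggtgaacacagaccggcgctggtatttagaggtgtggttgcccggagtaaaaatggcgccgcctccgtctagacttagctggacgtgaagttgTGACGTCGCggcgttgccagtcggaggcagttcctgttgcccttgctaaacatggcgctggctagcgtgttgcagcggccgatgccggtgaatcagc
Psme1: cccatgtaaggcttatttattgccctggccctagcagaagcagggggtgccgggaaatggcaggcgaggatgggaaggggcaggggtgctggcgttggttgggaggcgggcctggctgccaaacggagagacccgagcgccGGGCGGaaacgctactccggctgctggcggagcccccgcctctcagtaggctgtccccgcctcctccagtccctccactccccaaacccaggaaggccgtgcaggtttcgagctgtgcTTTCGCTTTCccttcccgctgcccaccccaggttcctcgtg
Psmb9: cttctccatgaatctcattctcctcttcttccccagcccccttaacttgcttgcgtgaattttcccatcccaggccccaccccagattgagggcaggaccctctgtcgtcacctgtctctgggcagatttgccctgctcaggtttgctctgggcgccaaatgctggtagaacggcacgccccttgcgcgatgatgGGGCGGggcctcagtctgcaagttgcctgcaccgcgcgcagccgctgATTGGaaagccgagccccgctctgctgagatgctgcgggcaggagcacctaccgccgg
Psmb8: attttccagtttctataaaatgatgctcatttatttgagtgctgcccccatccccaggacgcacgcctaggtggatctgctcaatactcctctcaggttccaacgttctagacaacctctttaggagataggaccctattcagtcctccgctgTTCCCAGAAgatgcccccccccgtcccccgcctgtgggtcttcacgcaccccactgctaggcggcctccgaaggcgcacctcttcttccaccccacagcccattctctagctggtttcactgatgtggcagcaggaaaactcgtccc
The Psmb5 window holds an ARE match 47 bases before the start site, and the window of Psmb6 also held one, as 12.4% of all 32851 promoter windows did. Psmb7 had no window, so the constitutive set was not complete. No window of Psmb8, Psmb9, Psmb10, Psme1 or Psme2 held that match. Psme1 holds an ISRE match, read on the opposite strand and 10 bases after the start site, as 3.44% of all promoters did, and a GC box, as 35.7% did. Psmb8 holds a GAS match 97 bases before its start site, found in 8.30% of all promoters. Psmb9 holds a GC box and a CCAAT box, the latter found in 37.4% of all promoters. Psmb9 lies head to head with Tap1, which encodes a subunit of the peptide transporter of class I loading: their start sites on chromosome 17 are 226 bases apart. Among 43 member windows (40 genes, 3 with 2 windows), ISRE matches were in 5 (11.6%). These belonged to Psme1, Psmd4, Psmd9, Psmb3 and Psmg4, and no window of Psmb8, Psmb9 or Psmb10 held one. A match describes letters in the window only. In the GENCODE annotation, Psmb8, Psmb9 and Psme1 begin further upstream, at positions 34197721, 34187764 and 55578123. Their windows lie inside the genes so annotated, and sequence before those outer starts was not searched for these genes.

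The libraries held 27577 barcodes, of which the authors named 24143 with 1 of 16 cell types; 4832 to 6821 named cells per library carried 14760904 to 18272108 UMIs (unique molecular identifiers, 1 per counted transcript). Levels are UMIs per 1000000 UMIs of the cells summed (CPM); UMIs count transcript ends and do not scale with gene length, but capture can differ between genes. Types were grouped as T (Early Act Cd8, Mem Cd8, Mem Cd4, Nai Cd8, Nai Cd4), B (GC Centrocyte, GC Centroblast, Trans B, MZ B, Fo B) or myeloid (DC/Mac, Ly6c- Mono, Ly6c+ Mono, Gran). The labels used here do not say how names were given, and 2 names went against their markers at least in part. Cells named GC Centroblast had cycling markers at 29.5 to 60.7 CPM and germinal centre markers at 19.9 to 71.4 CPM, against 2357 to 3033 and 172 to 790 CPM in GC Centrocyte cells, so the cycling germinal centre pattern lay in the latter. Early Act Cd8 cells, 14 to 70 a library, had Cd8a and Cd8b1 summed at 19.5 CPM in their lowest library and 715 CPM in their highest. Mem Cd8 cells had them at 1138 to 1553 CPM. The 4 granulocyte markers summed to 10.9 and 15.8 CPM in T cells of the young and aged WT libraries and to 666 and 753 CPM in those of the miR-146a and double knockout libraries. The host transcript Mir155hg gave 26, 45, 67 and 63 UMIs in T cells of the young WT, aged WT, miR-146a knockout and double knockout libraries; where the deletion lies relative to the counted end is not given, so it does not check the label. Across libraries, 416 barcode sequences occurred more than once. With 1 library per group, library ratios have no replicate check, and all their intervals (95%) cover counting error only.

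All 48 members together took 6879, 7119, 7146 and 7209 CPM in young WT, aged WT, miR-146a knockout and double knockout, over all named cells, or 0.688%, 0.712%, 0.715% and 0.721% of the UMIs. The 3 immune catalytic genes gave 76938 UMIs and the 3 constitutive ones 32232. The alpha ring, which forms the outer gate of the barrel, gave 104407 UMIs over 8 genes. Of the members, 46 passed the filter on low counts of the edgeR tests; Psmb11, the catalytic subunit of thymic cortical epithelium, had 2 UMIs in all named cells, and Psma8, the alpha subunit of the testis, had 10. Psmb8 was the most abundant catalytic subunit in all 4 libraries, at 653, 741, 786 and 729 CPM in young WT, aged WT, miR-146a knockout and double knockout. Its constitutive counterpart Psmb5 stood at 181, 179, 171 and 181 CPM. The regulators Psmf1 (the PI31 inhibitor) and Psme4 (PA200, a nuclear activator) were rare, with Psmf1 at 24 to 25 CPM in each library.

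The immune share of the catalytic subunits, that is the UMIs of Psmb8, Psmb9 and Psmb10 over those and Psmb5, Psmb6 and Psmb7, was above 50% in every library for 14 of the 15 cell types (the cells named T/B dbl left out). In T cells it was 69.7%, 72.7%, 77.3% and 73.7% in young WT, aged WT, miR-146a knockout and double knockout. In B cells it was 67.4%, 69.9%, 72.3% and 70.6% in the same order. In myeloid cells it was 68.6%, 65.0%, 62.1% and 59.8%. T and B cells were lowest in young WT and highest in the miR-146a knockout, and myeloid cells were highest in young WT and lowest in the double knockout. The type that went below 50% was Gran, at 66.7% (47.2 to 82.7, from 37 cells), 34.6% (17.2 to 55.7, from 16 cells), 53.9% (50.3 to 57.5) and 48.6% (45.8 to 51.5). Gran cells were 37 of 223, 16 of 191, 293 of 715 and 461 of 919 myeloid cells in these libraries, and the myeloid immune to constitutive ratios of the 3 main comparisons are also given without them, an alternative chosen after seeing the data.

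**Figure D1:**
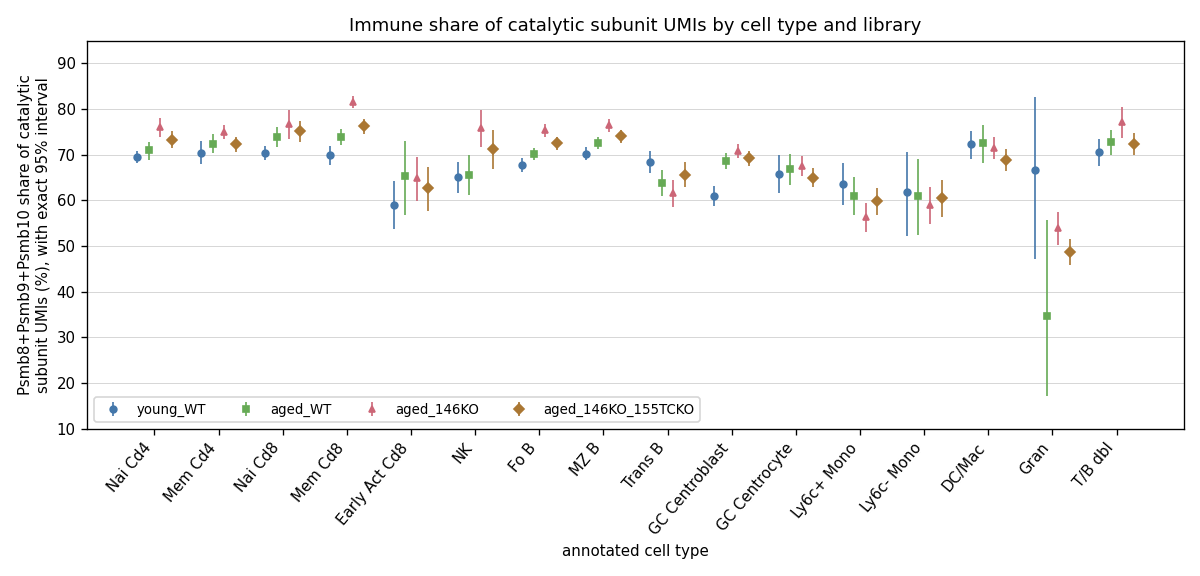
Share of catalytic subunit UMIs that come from Psmb8, Psmb9 and Psmb10 (y axis, percent) in each annotated cell type (x axis), 1 point per library with its exact Clopper-Pearson 95% interval. Naive and memory T cells, Fo B and MZ B cells lie highest in the aged_146KO library; Trans B and Ly6c+ Mono cells lie highest in young_WT, and Gran cells lie lowest in 3 of 4 libraries.

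Among single types the order was stable only in part. Nai Cd8 cells held rank 2 or 3 of 15 types in every library and MZ B cells rank 3 or 4. Mem Cd8 cells held rank 5 in young WT and rank 1 in the other 3 libraries, with shares of 69.9%, 73.9%, 81.6% and 76.2%. Both monocyte types held ranks 12 to 14 in every library; Ly6c- Mono cells spanned 58.9 to 61.7% and Ly6c+ Mono cells 56.3 to 63.7%. DC/Mac cells, whose dendritic members present antigen to T cells, spanned 68.8 to 72.5% and did not overlap either monocyte type. The ranges of Nai Cd4, Mem Cd4, Nai Cd8, MZ B, Fo B and DC/Mac cells overlapped, but the types share the 4 libraries. Within libraries, MZ B cells lay above Fo B cells in 4 of 4, at 70.2%, 72.6%, 76.4% and 74.0% against 67.7%, 70.2%, 75.4% and 72.5%, with counting intervals that overlapped in each. Nai Cd8 cells lay above Nai Cd4 cells in 4 of 4, and Mem Cd4 cells above Nai Cd4 cells in 2 of 4; these orders were not tested. The 3 pairs of exchangeable subunits were unequal. Psmb8 made up 79.6 to 85.7% of the Psmb8 and Psmb5 UMIs in T cells, Psmb10 68.5 to 72.1% of those with Psmb7, and Psmb9 49.3 to 61.5% of those with Psmb6.

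The first comparison between libraries concerned age, aged WT against young WT. In T cells the immune catalytic subunits stood at 1077 CPM in young WT and 1318 CPM in aged WT, a ratio of 1.22 (1.18 to 1.26), and the constitutive ones at 469 and 495 CPM, a ratio of 1.06 (1.00 to 1.11). The immune to constitutive ratio, in which library scaling cancels, was 1.16 times as high in aged WT (1.09 to 1.23). Psmb8 was at 675 and 840 CPM in T cells of young and aged WT, Psmb9 at 195 and 244, and Psmb10 at 207 and 234. Psmb9 and Psmb8 held ranks 2 and 3 of 46 measured members from the highest ratio, at 1.253 and 1.243, after Psmd1, the large scaffold of the base, at 1.32 (1.11 to 1.57). Psmg4, a chaperone of alpha ring assembly, had the lowest, 0.822 (0.715 to 0.942). In B cells the immune to constitutive ratio was 1.13 times as high (1.07 to 1.19), and in myeloid cells it was 0.850 times (0.721 to 1.00), an interval that reached 1. This myeloid value turned to 1.245 in cells with 1500 to 4000 UMIs and to 1.01 with the type mix of young WT, and was 0.874 without Gran cells.

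No member passed 1.5-fold with age in T or in B cells, the size rule used where there is no replicate, among genes with at least 50 UMIs over both libraries. Of all genes, 12.9% in T cells and 4.26% in B cells passed it. At a lower limit, a ratio 25% above 1 or its inverse, 2 of 46 members passed in T cells (Psmd1 and Psmb9) and 0 in B cells, against 30.4% and 16.4% of all genes. In myeloid cells 2 of 40 members passed 1.5-fold: Psmd12, a lid subunit, at 1.52 (0.971 to 2.41), and Psmd9, a base chaperone, at 0.652 (0.383 to 1.09), with intervals that reach 1 and 13.5% of all genes beyond the same limit. At the lower limit it was 6 of 40 against 35.4%. The member nearest inside the limit was Psmd12 and the nearest outside was Psmd10 at 0.671. The members' median log2 ratio in T cells was 0.09 and that of all genes 0.10, and in B cells -0.00 and -0.02. TMM scaling shifts every T cell ratio of this comparison by -0.13 on the log2 scale and takes the summed member level from 1.10 (1.08 to 1.11) to 1.00.

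The next comparison was the aged miR-146a knockout against aged WT; miR-146a is known as a brake on NF-kB signalling. In T cells the immune catalytic subunits stood at 1318 CPM in aged WT and 1709 CPM in the knockout, a ratio of 1.30 (1.252 to 1.34), while the constitutive ones stood at 495 and 503 CPM, a ratio of 1.02 (0.956 to 1.08). Psmb9 had the highest ratio of all 46 measured members, 1.39 (1.28 to 1.51), at 244 and 339 CPM, and Psmb8 the second highest, 1.30 (1.246 to 1.36), at 840 and 1093 CPM. Psmb10 stood at 1.18 (1.08 to 1.28), and the activator genes Psme1 and Psme2 at 1.14 (1.08 to 1.21) and 1.15 (1.09 to 1.22). The immune to constitutive ratio was 1.28 times as high in T cells (1.19 to 1.37) and 1.12 times in B cells (1.07 to 1.18). In myeloid cells it was 0.882 times (0.769 to 1.01), and 0.936 without Gran cells. The pairs pooled in this ratio did not move alike. From aged WT to the knockout, the Psmb8 share with Psmb5 went from 81.7% to 85.7% in T and 80.6% to 82.3% in B cells. The Psmb9 share with Psmb6 went from 53.6% to 61.5% and from 53.8% to 60.5%. The Psmb10 share with Psmb7 stayed within 68.5 to 72.1% in T cells and 61.5 to 63.5% in B cells over the 4 libraries. In B cells Psmb9 was again the highest of 46, at 1.23 (1.16 to 1.31), while Psmb8 was at 1.06 (1.02 to 1.10) and Psmb10 at 1.00 (0.935 to 1.08). Granulocyte markers summed to 15.8 CPM in T cells and 15.5 CPM in B cells of aged WT, and to 666 and 583 CPM in those of the knockout library; Gran cells held a lower immune share than any T cell type there, and the part of their RNA in these ratios was not tested.

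For each comparison by type, a type needed at least 50 cells in both libraries. Here this left out NK, Early Act Cd8, DC/Mac and Gran cells. The immune share of NK cells, at 97 and 49 cells, went from 65.6% in aged WT to 75.9% in the knockout. In Early Act Cd8 cells it went from 65.2% to 64.8%, in DC/Mac from 72.5% to 71.5% and in Gran from 34.6% to 53.9%. Among the 11 types compared, Mem Cd8 cells had the largest ratio, 1.56 (1.38 to 1.77). Their Psmb8 was at 707, 886, 1304 and 997 CPM in young WT, aged WT, miR-146a knockout and double knockout, Psmb9 at 162, 214, 321 and 235, and Psmb10 at 232, 263, 340 and 276. The constitutive Psmb5 in the same cells stood at 177, 184, 176 and 173 CPM, Psmb6 at 206, 207, 187 and 220 and Psmb7 at 90.0, 89.1, 81.0 and 77.0. All 3 immune subunits of Mem Cd8 cells were lowest in young WT and highest in the miR-146a knockout, and none of the constitutive ones followed that order. All 4 T cell types compared lay above 1, 2 of them with an interval above 1. Of the 5 B cell types, 4 lay above 1, and both myeloid types lay below 1 with intervals that reached it.

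**Figure D2:**
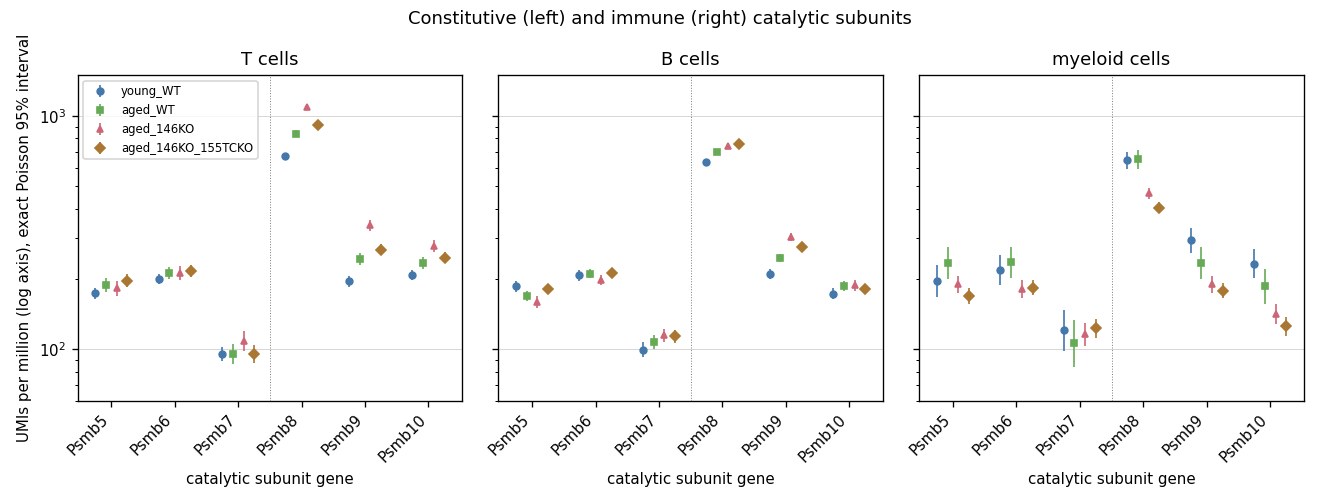
Level of each catalytic subunit gene (y axis, CPM on a log axis, with exact Poisson 95% intervals) in T, B and myeloid cells, 1 point per library; the constitutive genes are left of the dotted line and the immune genes right of it. In T cells Psmb8 runs from 675 in young_WT to 1093 in aged_146KO while Psmb5 stays between 173 and 197; in myeloid cells Psmb8 is lower in the 2 knockout libraries.

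No member passed 1.5-fold between the miR-146a knockout and aged WT in T or B cells, where 11% and 7.86% of all genes did. At the lower limit, 2 of 46 passed in T cells, both immune catalytic subunits (Psmb9 and Psmb8), against 29.2% of all genes, and 0 of 46 in B cells, against 23.2%. In myeloid cells 7 of 45 members were beyond 1.5-fold, all lower in the knockout, against 35.5% of all genes: Psmd7, a lid subunit, at 0.530 (0.401 to 0.705), Psme1 at 0.639 (0.558 to 0.734), Psmd2, the second large scaffold of the base, at 0.589 (0.452 to 0.775), Psmd3, Psmd8, Psmd5 and Psmf1. Psmd8, at 0.665, was the nearest inside the limit, and Psmc4, at 0.698, the nearest outside; 24 of 45 passed the lower limit against 63% of all genes. The members' median log2 ratio, -0.34, lay beside that of all genes, -0.36. The summed level was 7505 CPM in aged WT and 5984 CPM in the knockout, a ratio of 0.797 (0.773 to 0.822). Gran cells, whose members sum to only 3261 CPM in the knockout library, were 293 of its 715 myeloid cells: without them, an alternative chosen after seeing the data, the ratio was 1.05 and 4 members passed 1.5-fold, all upward (Psmc3, Psmg3, Psmd6 and Psmc1), and TMM scaling, which shifts this comparison by 0.38 on the log2 scale, gave 1.04 and 5 members beyond 1.5-fold, also all upward.

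The last comparison set the double knockout beside the miR-146a knockout. It shares the miR-146a knockout library with the comparison before, so the values of both are given side by side only. In T cells the immune catalytic subunits stood at 1709 and 1422 CPM, a ratio of 0.832 (0.805 to 0.861), and the constitutive ones at 503 and 508 CPM, a ratio of 1.01 (0.953 to 1.07). Psmb9 had the lowest ratio of 46 members, 0.785 (0.727 to 0.847), and Psmb8 held rank 3 from the lowest, 0.832 (0.798 to 0.868). These sums do not describe each pair of exchangeable subunits. In T cells the Psmb8 share with Psmb5 went from 85.7% to 82.2% and the Psmb9 share with Psmb6 from 61.5% to 55.2%. The Psmb10 share with Psmb7 stayed within 68.5 to 72.1% over the 4 libraries. The immune to constitutive ratio was 0.823 times that of the miR-146a knockout in T cells (0.769 to 0.880), 0.917 times in B cells (0.870 to 0.966) and 0.907 times in myeloid cells (0.829 to 0.992). Without Gran cells the myeloid value was 0.993; by type it was 0.808 in Gran cells (0.673 to 0.969), 0.881 in DC/Mac (0.751 to 1.03), 1.15 in Ly6c+ Mono (0.968 to 1.37) and 1.07 in Ly6c- Mono cells (0.844 to 1.34). Against aged WT, the double knockout was at 1.05 times in T cells (0.983 to 1.12) and 1.03 times in B cells (0.979 to 1.08), intervals that include 1, and at 0.7998 times in myeloid cells (0.699 to 0.915). In the 2 myeloid types compared, that value was 0.948 in Ly6c+ Mono (0.768 to 1.17) and 0.978 in Ly6c- Mono cells (0.672 to 1.43), and both intervals included 1; Gran cells were 16 of 191 myeloid cells in aged WT and 461 of 919 in the double knockout. All 4 T cell types compared were below 1 against the miR-146a knockout, with Mem Cd8 cells lowest at 0.725 (0.641 to 0.821). No member passed 1.5-fold in T, B or myeloid cells, against 7.34%, 2.9% and 7.47% of all genes; at the lower limit it was 1 of 46 (Psmb9, lower), 0 of 46 and 4 of 46, against 23.6%, 13.3% and 27.8%.

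**Figure D3:**
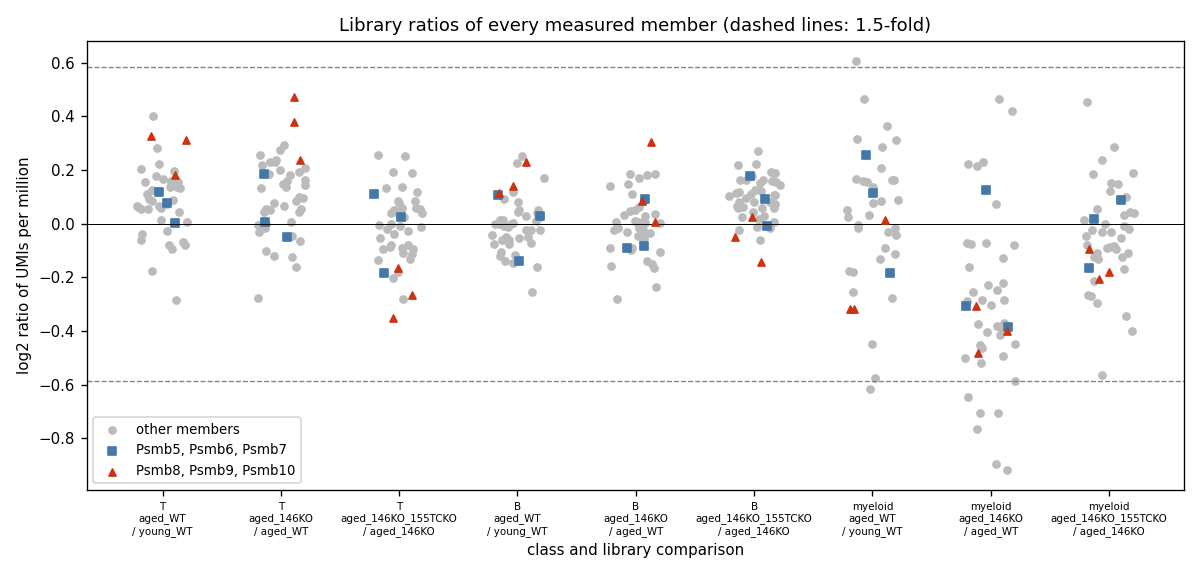
Log2 ratio of CPM (y axis) of every measured member in 9 class and library comparisons (x axis); red triangles are the immune catalytic subunits, blue squares the constitutive ones, grey points the other members and dashed lines mark 1.5-fold. The immune subunits lie above the constitutive ones in T cells of aged_146KO against aged_WT and Psmb9 and Psmb8 lie below them in aged_146KO_155TCKO against aged_146KO; in myeloid cells of aged_146KO against aged_WT 38 of 45 members lie below 0.

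Trans B cells, recent arrivals from the bone marrow, differed in direction from Fo B and MZ B cells with age, at an immune to constitutive ratio of 0.814 (0.689 to 0.961); the difference between types was not tested. Their immune share was 68.5%, 63.9%, 61.6% and 65.7% in young WT, aged WT, miR-146a knockout and double knockout. Their Psmb7 was at 116, 149, 144 and 138 CPM and Psmb6 at 200, 234, 268 and 220, so both constitutive subunits were lowest in young WT; Psmb10 was highest there, at 247 CPM against 207 to 243 in the others. GC Centroblast cells had the highest ratio with age of the 4 B cell types compared, with shares of 61.0% and 68.6% and an immune to constitutive ratio 1.40 times as high (1.24 to 1.58). Psmb9 was at 192 and 275 CPM in these cells of young and aged WT, Psmb8 at 599 and 731, and Psmb5 at 244 and 209.

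The genes that work beside the immunoproteasome were read as 2 lists. The 12 genes of class I loading and its interferon regulators include the peptide transporter (Tap1, Tap2), the class I heavy and light chains (H2-K1, H2-D1, B2m) and the transcription regulators Irf1 and Nlrc5. In T cells 12 of 12 lay above 1 with age, 3 of them beyond 1.5-fold, against 12.9% of all genes, with a median log2 ratio of 0.40 against 0.10 for all genes. In the miR-146a knockout 11 of 12 lay above 1, 2 beyond 1.5-fold against 11% of all genes, with a median of 0.37 against 0.05. In the double knockout against it, 0 of 12 did, 2 were beyond 1.5-fold downward against 7.34% of all genes in either direction, and the median was -0.28 against -0.04. Tap1 was at 119, 157, 229 and 177 CPM in T cells of the 4 libraries, lowest in young WT and highest in the miR-146a knockout. Ifng, the gene of interferon gamma, was at 3.4, 11.6, 34.7 and 17.2 CPM. These T cell values pool types whose mix differed between libraries. Mem Cd8 cells were 364 of 2904, 483 of 1755, 433 of 1514 and 489 of 2083 T cells, in library order. Mem Cd4 cells were 314, 512, 616 and 700 of the same totals. The part of this mix in the values of the list was not tested. In myeloid cells 0 of 9 measured genes of this list lay above 1 with age, with a median log2 ratio of -0.29 beside 0.01 for all genes. In the miR-146a knockout 0 of 10 did, with a median of -0.49 beside -0.36 for all genes, of which 1588 of the 2054 beyond 1.5-fold were lower. The 20 measured genes of the second list, proteasome partners such as the maturation factor Pomp, the ubiquitin receptor Adrm1 and the transcription factor Nfe2l1 that drives subunit genes, had T cell medians of 0.09, 0.10 and -0.07 in the 3 comparisons, beside 0.10, 0.05 and -0.04 for all genes.

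Between cell classes the 4 libraries served as samples, with the library as a block. The libraries differ in age and genotype, and p-values measure how far the class differences vary over them once the block is taken out. Whether names were given with some of these genes is not known. Both subunits of the PA28 activator were called higher in T cells than in B cells. Psme2 was at 453, 518, 599 and 564 CPM in T cells and at 287, 287, 298 and 299 in B cells of young WT, aged WT, miR-146a knockout and double knockout; no T cell value overlapped a B cell value. The difference was 0.82 on the log2 scale (SE 0.08, edgeR adjusted p = 6.52e-06, higher in 4 of 4 libraries; adjusted p up to 0.000462 over the alternatives). Its reads could be shared with the near-identical copy Psme2b, so its level is uncertain. Psme1 was higher in T cells by 0.37 (SE 0.10, edgeR adjusted p = 0.00854, 4 of 4 libraries) and Psmb10 by 0.36 (SE 0.10, edgeR adjusted p = 0.0131, 4 of 4 libraries); both lost the call without TMM scaling, at adjusted p = 0.0782 and 0.0881. Psmb8 did not pass the test between T and B cells (log2 difference 0.26, edgeR adjusted p = 0.0781) and neither did Psmb9 (-0.04, edgeR adjusted p = 0.828). In all, 5 of 46 members were called higher and 3 lower in T cells, the latter Psmg3 and Psme3, a chaperone and the nuclear activator PA28 gamma, and Psma1; 42% of all genes were called. Leaving out 1 library left between 2 and 10 calls (2 without the miR-146a knockout, 3 without the double knockout and 5 without aged WT), and library totals without TMM, added after seeing the data, left 3.

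The catalytic subunits also differed between myeloid and T cells. Against T cells, Psmb5, Psmb6 and Psmb7 were all called higher, by 0.35, 0.21 and 0.52 on the log2 scale (SE 0.10, 0.08 and 0.12; edgeR adjusted p = 0.00886, 0.0426 and 0.00286), and Psmb8 and Psmb10 lower, with differences of -0.46 and -0.28 (SE 0.11 and 0.10; edgeR adjusted p = 0.00411 and 0.0396). Psmb9 was not called (0.03, edgeR adjusted p = 0.86). On the CPM scale Psmb7 was higher in 4 of 4 libraries, Psmb5 in 3 and Psmb6 in 2, Psmb8 was lower in 4 without overlap, and Psmb10 was lower in 3. Without Gran cells Psmb8 still passed (edgeR adjusted p = 0.00935) and Psmb10 did not (edgeR adjusted p = 0.441). Psma7, an alpha ring subunit, was at 549, 613, 461 and 450 CPM in myeloid cells against 364, 379, 381 and 403 in T cells and 324, 319, 316 and 360 in B cells, with no overlap. It was higher by 0.68 than in T cells (SE 0.08, edgeR adjusted p = 3.26e-05, 4 of 4 libraries) and by 0.85 than in B cells (SE 0.08, edgeR adjusted p = 5.91e-06, 4 of 4 libraries). Psmd8, a lid subunit, was higher by 0.79 and 0.64 (SE 0.11 each, edgeR adjusted p = 1e-04 and 0.000435). The chaperones Psmg1 and Psmg2, partners in alpha ring assembly, were lower than in T cells, with differences of -0.80 and -0.65 (SE 0.16 and 0.14, edgeR adjusted p = 0.00109 and 0.00218). Of 46 members, 14 were called higher and 8 lower against T cells, with 57.4% of all genes called, and 11 higher and 7 lower against B cells, with 57.5% called. The split depends on scaling: with library totals instead of TMM it was 2 and 20 against T cells and 2 and 12 against B cells, while the median of all genes moved from -0.04 to -0.35 and from -0.05 to -0.31. With that scaling Psmb5, Psmb6 and Psmb7 lost the call against T cells, and Psmb6 turned to -0.05; Psmb8 and Psmb10 stayed called and lower.

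In GC Centrocyte cells, which carried cycling markers, 38 of 46 members were called higher than in Fo B cells and 0 lower, against 47% of all genes called in either direction, and the members' median log2 difference was 0.61 beside -0.01 for all genes. All members summed to 8938 to 10838 CPM in GC Centrocyte cells and to 5732 to 6213 CPM in Fo B cells. Psmd14, the lid enzyme that removes ubiquitin, was at 180, 168, 195 and 199 CPM in GC Centrocyte cells against 61.6, 59.5, 60.4 and 61.1 in Fo B cells, a log2 difference of 1.44 (SE 0.13, edgeR adjusted p = 4.12e-13, 4 of 4 libraries). Psmb7 was at 210, 250.6, 252 and 232 CPM against 81.3, 94.2, 84.4 and 83.4, a difference of 1.28 (SE 0.11, edgeR adjusted p = 6.16e-14, 4 of 4 libraries). Psmd13, a lid subunit, was higher by 1.17 and Psmd1 by 0.98 (edgeR adjusted p = 3.05e-13 and 3.55e-08). Values of GC Centrocyte and Fo B cells did not overlap in 36 of the 38 called members, which were called on the same libraries. The share of all genes without overlap was not counted. By role, 7 of 7 measured alpha ring genes, 4 of 4 structural beta genes, 3 of 3 constitutive catalytic genes and 6 of 6 base ATPases were called, and 2 of 3 immune catalytic genes. Of the immune catalytic genes, Psmb8 was higher by 0.35 (SE 0.11, edgeR adjusted p = 0.00758, up to 0.0808 over the alternatives), Psmb9 by 0.61 (SE 0.11, edgeR adjusted p = 9.65e-06) and Psmb10, not called, by 0.21 (SE 0.11, edgeR adjusted p = 0.105), against 0.63, 0.57 and 1.28 for Psmb5, Psmb6 and Psmb7; the difference between the sets was not tested. Psme4, Psmf1, Psmg3, Psmg4, Psmd5, Psmd9 and Psmd11 were not called either. Cycling markers summed to 2357 to 3033 CPM in GC Centrocyte cells and to 35.2 to 40.9 CPM in Fo B cells, plasma cell markers to 749 to 2317 CPM against 522 to 582 CPM, T cell markers to 264 to 1155 CPM against 28.4 to 66.2 CPM, and erythroid markers to 0, 0, 5025 and 2847 CPM in GC Centrocyte cells; their part in the result was not tested. GC Centrocyte cells numbered 44, 51, 129 and 150 in young WT, aged WT, miR-146a knockout and double knockout. Their median was 5228 to 6682 UMIs a cell, against 1678 to 2296 in Fo B cells. The part of depth in the result was not tested. Between 32 and 38 members were called with 1 library left out.

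**Figure D4:**
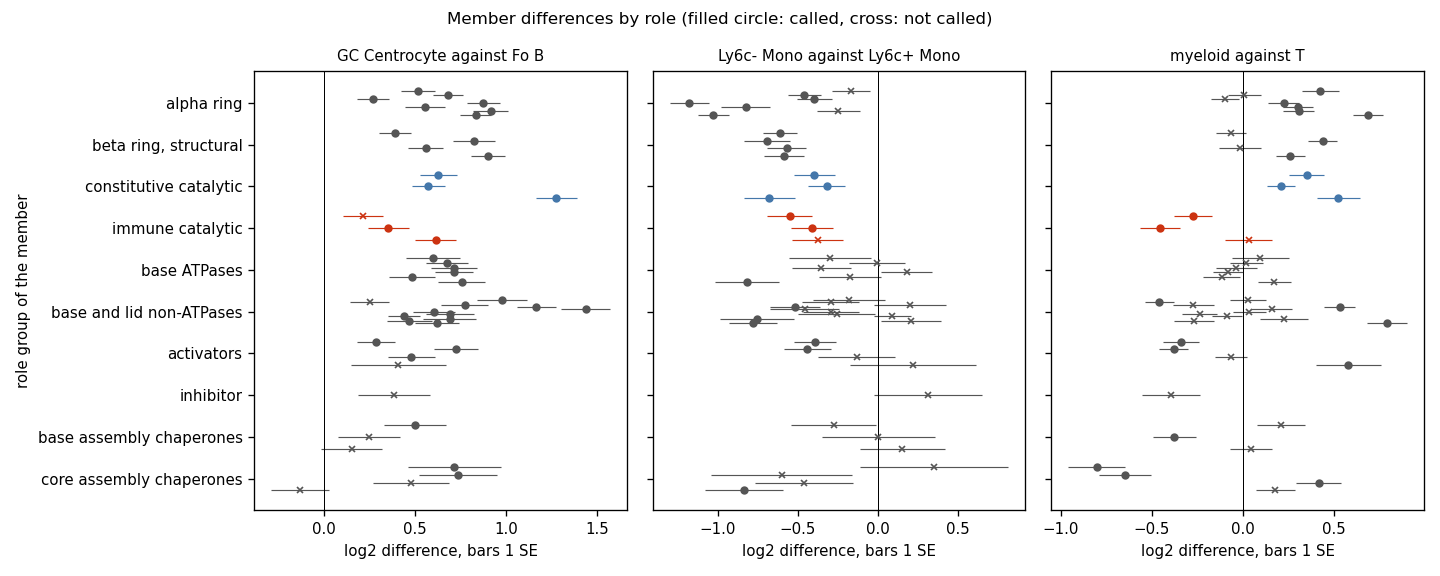
Log2 difference of each measured member (x axis, bars are 1 SE) by role group (y axis) for GC Centrocyte against Fo B cells, Ly6c- Mono against Ly6c+ Mono cells and myeloid against T cells; filled circles passed the edgeR test at an adjusted p under 0.05, crosses did not. In the first panel 38 of 46 members lie to the right as called, in the middle one 21 lie to the left, and in the last the 3 constitutive catalytic genes (blue) lie right of 0 and 2 of the immune ones (red) left of it, a split that depends on scaling (with library totals Psmb6 lies left of 0).

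Between the monocyte types the members were lower in one of them. In Ly6c- Mono cells, the patrolling form, 0 of 46 members were called higher and 21 lower than in Ly6c+ Mono cells, the classical form, against 21.2% of all genes called; the members' median was -0.38 beside 0.01 for all genes. Psma4 was at 211, 144, 145 and 148 CPM against 259, 300, 338 and 347, with no overlap, a log2 difference of -1.18 (SE 0.12, edgeR adjusted p = 8e-11, lower in 4 of 4 libraries). Psma7 was at 550, 556, 486 and 496 CPM against 946, 751, 974 and 1134, a difference of -1.03 (SE 0.10, edgeR adjusted p = 4.02e-12, 4 of 4 libraries). Psma5 fell by 0.83 on the log2 scale and Psmg4 by 0.83 (SE 0.15 and 0.24, edgeR adjusted p = 4.17e-05 and 0.00913). Constitutive and immune catalytic genes were both called lower, with differences of -0.68 for Psmb7, -0.40 for Psmb5, -0.32 for Psmb6, -0.55 for Psmb10 and -0.41 for Psmb8; Psmb9 was at -0.38 and not called (edgeR adjusted p = 0.0852). With library totals in place of TMM 14 members were called, and Psmb5, Psmb6 and Psmb8 were not (edgeR adjusted p = 0.158, 0.255 and 0.123). Values did not overlap between the 2 types in 5 of the 21 called members, a count not made for all genes. Without the double knockout library 9 members were called, and 9 to 22 with any 1 library left out. The Ly6c- Mono cells numbered 27, 55, 186 and 207 in the 4 libraries, with a median of 1659 to 2300 UMIs a cell against 4442 to 6777 in Ly6c+ Mono cells. B cell markers summed to 364 to 1044 CPM in Ly6c- Mono and 82.0 to 544 CPM in Ly6c+ Mono cells, T cell markers to 107 to 431 and 36.0 to 109 CPM, and granulocyte markers to 14.1 to 992 and 8.37 to 3684 CPM. The part of depth and of these markers in the result was not tested.

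Other pairs of related types had few calls. NK cells held less Psme2 than Mem Cd8 cells in every library, at 303, 359, 506 and 496 CPM against 439, 514, 652 and 541, a log2 difference of -0.63 (SE 0.13, edgeR adjusted p = 0.000194, 4 of 4 libraries); Psmc3, a base ATPase, was higher at 210, 198, 155.2 and 194 CPM against 123, 114, 106 and 103 (0.54, SE 0.15, edgeR adjusted p = 0.00791, 4 of 4 libraries). Psmb8, Psmb1 and Psme1 were also called lower in NK cells, on the CPM scale in 3, 3 and 2 of 4 libraries, so that 1 member was called higher and 4 lower, against 12.5% of all genes. These 3 lost the call with library totals in place of TMM, which gave 6 higher and 1 lower and moved the median of all genes from -0.04 to 0.20. Leaving out 1 library left 2 to 3 calls whichever it was. In Mem Cd4 against Nai Cd4 cells 0 of 46 members were called by edgeR against 18.5% of all genes, 5 had an unadjusted p under 0.05, and DESeq2 called 3. In Mem Cd8 against Nai Cd8 cells edgeR called 0 of 46 against 8.99%, 1 had an unadjusted p under 0.05, and DESeq2 called 0. In MZ B against Fo B cells edgeR called 0 of 46 against 4.07%, 7 had an unadjusted p under 0.05, and DESeq2 called 5, all higher.

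**Figure D5:**
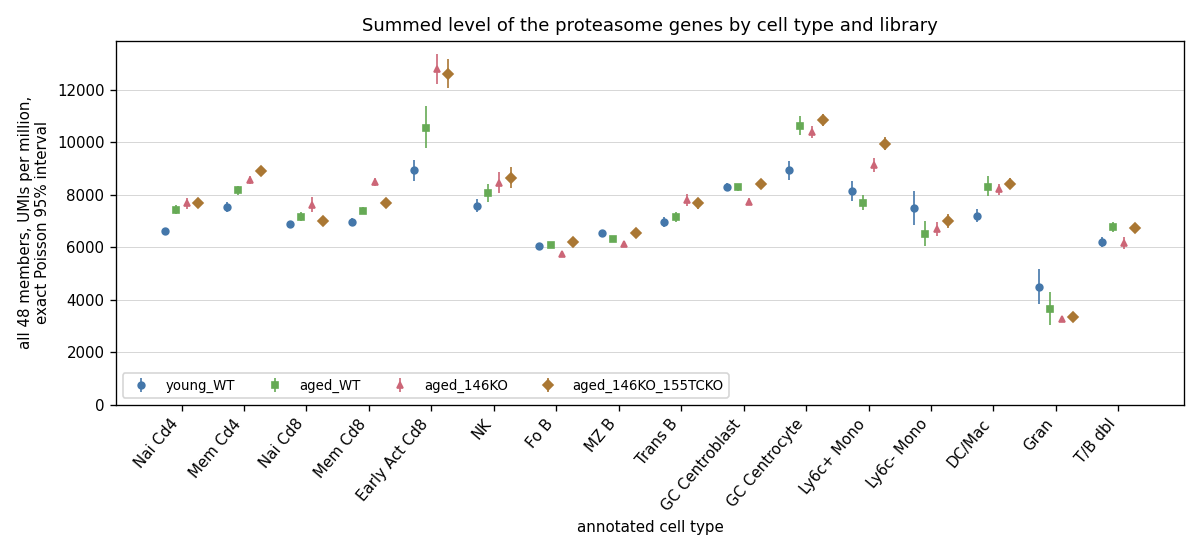
Summed level of the 48 members (y axis, CPM from 0, with exact Poisson 95% intervals) in each annotated cell type (x axis), 1 point per library. Gran cells lie lowest, at 3261 to 4474, Fo B cells at 5732 to 6213, and GC Centrocyte and Early Act Cd8 cells highest, reaching 10838 and 12789.

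Single members varied between types to different degrees. Over the 13 types with at least 20 cells in every library, Psmg2 had the widest span of median levels, 44.3 CPM in GC Centroblast and 7.64 CPM in Ly6c- Mono cells, the latter from 14 UMIs. Psma7 ran from 266 CPM in Fo B cells to 960 CPM in Ly6c+ Mono cells, and Psme2 from 208 CPM in Fo B cells to 545 CPM in Mem Cd4 cells. Psmb8 spanned less, from 496 CPM in Ly6c- Mono to 999 CPM in GC Centrocyte cells. Gran cells, outside these 13 types, held Psmb8 at 131 to 192 CPM and Psme1 at 126 to 241 CPM, below every other type. Across 58 points of type and library, the genes outside the 48 whose log2 level followed the summed immune catalytic level most closely were Atp5g2 (Pearson r = 0.86), Snrpf (0.85), Eif3m, Emc10 and Eif4b (0.84 each), of 5959 genes; among members Psme1 was the closest (0.85, rank 2) and Psmb1 next (0.79, rank 40). The points were types with at least 20 cells in a library, so Gran and Early Act Cd8 cells entered where they reached that number. Gran cells, at most 481 CPM, had the lowest summed immune catalytic level of all types, and their part was not tested. Points of 1 library share its depth, and points of 1 type share its cells, so the correlations only describe the libraries.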

How the data were processed

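The authors deposited UMI counts per gene and cell barcode of 4 10x libraries, made with Cell Ranger 3.0.0 on mm10 per the submitters' processing notes, and a table with a cell type name per barcode (a deposited label of another kind, with no unit); the labels used here name no counting options. Counts were summed over named cells per library, class (T, B, myeloid) or type with Python 3.11.15 and pandas 2.3.3 and divided by the summed UMIs (CPM). Names were taken as deposited, and cells named T/B dbl entered no class; the labels used here do not say whether doublets were removed otherwise. Ratios between libraries carry exact 95% intervals, which cover counting error only, since UMIs of 1 library are not replicates; 1.5-fold with at least 50 UMIs over both libraries was the size rule. Classes and types were compared with edgeR 4.0.16 (quasi-likelihood test, TMM, filterByExpr, library as block, Benjamini-Hochberg over 10855 or 9233 genes, threshold 0.05) in R 4.3.3, with DESeq2 1.42.0 as an alternative; 13 types with at least 20 cells per library entered. The scripts were tested on simulated counts. Classes or types of 1 library come from the same pool of mice, and their deviations correlated in all 12 pairs of classes (r 0.19 to 0.57). Named genes were the catalytic, activator, inhibitor and chaperone members, up to 4 others per direction in each comparison, and those nearest the 1.5-fold limit. Members, lists and rules were chosen with earlier results of these data known. Depth was 14760904 to 18272108 UMIs per library over named cells. One gene of the class I loading list is counted with it but not reported here.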

Additional observations from a re-analysis of the deposited data

Results flagged for a closer look

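Trans B cells went the other way from the remaining B cell types in the immune to constitutive ratio. Aged WT against young WT gave 1.12 in Fo B, 1.12 in MZ B and 1.4 in GC Centroblast cells, and 0.814 in Trans B cells. Set against the miR-146a knockout, the double knockout gave 0.86 in Fo B and 0.878 in MZ B cells, and 1.19 in Trans B cells. Each of these counting intervals lay on its own side of 1, with 1 library per group, and the difference between types was not tested.

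Barcodes that the authors left without a name were not used in any comparison. Among those above 9000 UMIs whose plasma cell markers were highest, 12, 57, 56 and 83 barcodes in young WT, aged WT, the miR-146a knockout and the double knockout held the members at 9112, 9346, 9106 and 9156 CPM of the UMIs without immunoglobulin genes. On all UMIs, of which immunoglobulin genes took 61.7 to 68.8%, the same members were at 3492, 2915, 3074 and 2945 CPM. There were no control samples for this signal. It was singled out because it lies in data outside the named cells. Other unnamed barcodes above 9000 UMIs were read on the same scale without immunoglobulin genes, in library order. Those with T cell markers highest held the members at 12066, 11716, 11839 and 12763 CPM. Those with B cell markers highest held them at 8548, 10197, 11397 and 11670 CPM, and those with myeloid markers highest at 5555, 10375, 8589 and 8400 CPM.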

How the results depend on the processing

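Alternatives that leave out cell types or TMM scaling were chosen after seeing the data. The immune to constitutive ratio kept its value within the counting interval in 30 of 36 alternatives. The exceptions were, for the miR-146a knockout in B cells, 1.20 with the type mix of aged WT, 1.22 in cells with 1500 to 4000 UMIs and 1.19 without GC cells; for age in myeloid cells, 1.01 with the type mix and 1.245 at that depth; and 0.993 for the double knockout in myeloid cells without Gran cells. The cause was not tested. The summed member level moved more. For age in T cells it was 1.00 with TMM and 1.02 with a total without immunoglobulin, T cell receptor, mitochondrial and ribosomal genes. For the knockout in T cells it was 1.09 as a mean over cells, 1.07 with the type mix, 1.09 by depth, 1.10 without Early Act Cd8 cells, 1.07 with TMM and 1.04 with the reduced total. For the double knockout in T cells it was 0.976 as a mean over cells, 0.984 with the type mix, 0.985 with TMM and 1.00 with the reduced total. For age in B cells it was 0.985 by depth and 0.987 without GC cells. For the knockout in B cells the direction reversed to 0.962 with the type mix, 0.973 by depth and 0.975 without GC cells, and stood at 1.03 with TMM and 1.04 with the reduced total. For the double knockout in B cells it was 1.07 by depth, 1.04 with TMM and 1.03 with the reduced total. For age in myeloid cells it was 1.07 by depth. For the knockout in myeloid cells it reversed to 1.09 with the type mix, 1.05 without Gran cells and 1.04 with TMM, and stood at 0.771 by depth and 0.726 with the reduced total. For the double knockout in myeloid cells it reversed to 1.04 with the type mix, 1.06 without Gran cells and 1.05 with TMM, and stood at 0.888 by depth and 0.946 with the reduced total. Members beyond the limit numbered, at a ratio 25% above 1 or its inverse, 2, 2 and 1 in T cells and 6, 24 and 4 in myeloid cells for age, knockout and double knockout. In myeloid cells, age gave 4 with at least 20 UMIs, 0 with at least 200 UMIs and 1 with TMM, the knockout 4 with at least 200 UMIs and 4 without Gran cells, and the double knockout 2 without Gran cells. Members called with 1 library left out numbered 2 to 10 for T against B, 14 to 22 for myeloid against T, 12 to 18 for myeloid against B, 0 to 2 for Mem Cd4 against Nai Cd4, 0 to 1 for MZ B against Fo B, 32 to 38 for GC Centrocyte against Fo B, 9 to 22 for the monocyte types and 2 to 3 for NK against Mem Cd8. DESeq2 called 3 in Mem Cd4 and 5 in MZ B cells, and library totals without TMM 3 for T against B and 6 for Mem Cd4. Without the replicate block NK against Mem Cd8 had 3 calls in place of 5; leaving out the block moved no other count by over 1.5 times. No paired analysis was possible between libraries because each group has 1 library. Depth limits the myeloid comparisons most: 40 of 46 members reached 50 UMIs with age.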
